A study of Mus musculus with 4 samples.

Results

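KAP1 and 9 partners of its silencing pathway were followed at their own transcription start sites, to ask whether chromatin reads at these genes differed when regulatory T cells (Tregs) lacked KAP1. The set holds 10 of the 51121 windows in the table, picked by Ensembl identifier under a rule that uses no measured value: Trim28 (which encodes KAP1), Setdb1, Suv39h1, Suv39h2, Cbx1, Cbx3, Cbx5, Chd3, Chd4 and Dnmt1. The choice was made with earlier results of these data known. The study used Tregs sorted from the spleen of C57BL/6 mice, labelled wild type or KAP1 deficient, and described an anti-H3K9me3 immunoprecipitate and an input for each. The table has 1 column per genotype. One is headed Foxp3creKAP1+/+ and the other Foxp3creKAP1f/f, so both carry Foxp3cre, a recombinase driven from the gene that defines Tregs, and they differ in whether Kap1 is intact or floxed. The headings do not say which of a genotype's 2 samples a column holds. Each column is named below by its heading, as the KAP1+/+ or the KAP1f/f library. That they hold H3K9me3 reads is taken from the series' design text and was not tested. The labels give no age, sex or number of mice, and do not say which exons the recombinase removes. Reads from DNA carry no expression, so the labelled cell type was not checked.

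In the known pathway, KRAB zinc finger proteins recognise DNA and bring in KAP1, a scaffold that SUMO modification and a bromodomain link to other enzymes. SETDB1 then trimethylates lysine 9 of histone H3, HP1 proteins bind that mark, and the NuRD complex removes acetyl groups and remodels nucleosomes. SUV39H1 and SUV39H2 make the same mark, mainly in the heterochromatin around centromeres, and DNMT1 copies DNA methylation at replication. The genes lie on chromosomes 2 (Suv39h2), 3 (Setdb1), 6 (Cbx3 and Chd4), 7 (Trim28), 9 (Dnmt1), 11 (Cbx1 and Chd3), 15 (Cbx5) and X (Suv39h1). They are transcribed widely in dividing cells, and their start sites mostly lie in CpG islands, stretches of DNA rich in the dinucleotide CG.

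The start site sequences of 4 members are shown because the counts below were made around such sites: Trim28 as the deleted gene, Cbx3 and Cbx5 as the windows with the fewest reads, and Dnmt1 as the window with the highest KAP1f/f to KAP1+/+ ratio past the low-count filter. They run from 250 bases before to 50 bases after a start listed by RefSeq, on build GRCm38.p6, 5′ to 3′ on the gene's strand, with each CG dinucleotide in capitals. Trim28 lies at chr7:13023902-13024201 on the plus strand, the first Cbx3 start at chr6:51470366-51470665 on the plus strand and the first Cbx5 start at chr15:103239803-103240102 on the minus strand. For Dnmt1 the upstream start is at chr9:20959839-20960138 and the downstream one at chr9:20952574-20952873, both on the minus strand. A further Dnmt1 start listed between them, at chr9:20952930-20953229, is not shown.
Trim28: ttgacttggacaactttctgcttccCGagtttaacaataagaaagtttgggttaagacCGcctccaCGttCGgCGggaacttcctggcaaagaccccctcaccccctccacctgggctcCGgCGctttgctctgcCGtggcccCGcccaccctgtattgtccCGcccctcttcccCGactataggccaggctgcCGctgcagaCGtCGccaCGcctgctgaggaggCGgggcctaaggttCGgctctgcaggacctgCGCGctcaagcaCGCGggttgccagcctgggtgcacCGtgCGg
Cbx3: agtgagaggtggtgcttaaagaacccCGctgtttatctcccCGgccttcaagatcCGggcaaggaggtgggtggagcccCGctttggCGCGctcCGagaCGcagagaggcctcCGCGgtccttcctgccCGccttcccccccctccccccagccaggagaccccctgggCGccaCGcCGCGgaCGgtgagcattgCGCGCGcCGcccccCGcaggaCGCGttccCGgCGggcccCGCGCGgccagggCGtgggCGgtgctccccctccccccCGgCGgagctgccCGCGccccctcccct
Cbx5: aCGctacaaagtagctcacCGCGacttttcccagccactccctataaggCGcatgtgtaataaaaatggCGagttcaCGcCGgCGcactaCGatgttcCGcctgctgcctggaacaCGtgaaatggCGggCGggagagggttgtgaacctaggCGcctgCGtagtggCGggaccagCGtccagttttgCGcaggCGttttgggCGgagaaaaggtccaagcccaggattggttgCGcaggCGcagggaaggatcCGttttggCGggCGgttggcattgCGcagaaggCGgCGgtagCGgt
Dnmt1 upstream start: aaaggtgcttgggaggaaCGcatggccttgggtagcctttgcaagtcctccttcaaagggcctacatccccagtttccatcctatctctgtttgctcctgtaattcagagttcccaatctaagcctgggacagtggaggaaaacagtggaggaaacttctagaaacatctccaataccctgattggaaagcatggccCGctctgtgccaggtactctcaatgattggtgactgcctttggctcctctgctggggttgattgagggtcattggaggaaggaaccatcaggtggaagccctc
Dnmt1 downstream start: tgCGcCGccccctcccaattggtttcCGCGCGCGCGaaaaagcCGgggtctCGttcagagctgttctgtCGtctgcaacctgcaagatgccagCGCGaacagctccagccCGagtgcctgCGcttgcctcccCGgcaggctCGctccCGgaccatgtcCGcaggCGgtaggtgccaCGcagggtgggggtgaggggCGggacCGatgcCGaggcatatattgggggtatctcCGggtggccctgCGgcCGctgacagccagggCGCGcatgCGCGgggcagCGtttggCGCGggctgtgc

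The Trim28, Cbx3 and Cbx5 sequences are rich in capitals, with 23, 34 and 29 CG dinucleotides against a median of 7 over the 32851 promoters of the RefSeq table. The Dnmt1 pair shows why the choice of start matters: the upstream stretch has 2 CG dinucleotides and the downstream one 33. The Dnmt1 start between them, not shown, has 12. The width of the counted windows and which of several starts was used are not given, so a sequence here need not be the counted stretch. Of the 10 genes, 9 had an entry, with 15 promoters between them, and Chd3 had none. Taking the promoter with the highest GC of each gene, a choice made after the data were seen, 8 of 9 lay above the median GC content of all promoters (52.7%), Cbx1 being level with it. That choice raises the count, since the median is taken over all promoters and not over the highest of each gene. The first listed Dnmt1 promoter, at 51.3% GC, lies below the median. The first Cbx3 promoter had 75.3% GC, higher than 96.5% of promoters. TGCCGC, the hexamer bound by the KRAB zinc finger protein ZFP57 when methylated, was searched on both strands. It stood once in the Trim28 promoter and once in a Suv39h1 promoter, 2 of the 15, and 11.6% of all promoters of this length hold it. CCGGAAG, a core of the sites of ETS transcription factors, was found 2 times in the Setdb1 promoter and in no other of the 15. It is held by 8.86% of all promoters, and no match of one motif overlapped a match of the other, since no member's promoter held both.

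Depth was low in both libraries. The KAP1+/+ library had 480326 reads in windows (a median of 10 per window, quartiles 5 and 13) and the KAP1f/f library 228009 (a median of 4, quartiles 2 and 6), a 2.11-fold difference. Ratios below therefore divide each count by its library's total, which also removes any difference in total signal between the genotypes. With 1 library per genotype there is no replicate spread and no test. Every interval is a 95% interval for counting error alone, and it compares these libraries, not the genotypes.

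At the start of Trim28 (ENSMUSG00000005566), which encodes KAP1 itself, 13 reads were counted in the KAP1+/+ library (Poisson interval 6.92 to 22.2) and 4 in the KAP1f/f one (1.09 to 10.2). The former placed the window at the 72.4th percentile of all windows and the latter at the 49.98th, where the percentile is the share of windows with fewer reads plus 50% of those with equal reads. Scaled to depth, the KAP1f/f to KAP1+/+ ratio was 0.65, with an exact interval of 0.15 to 2.098. The 4 reads compare with 5.47 at the ratio of the library totals, so the counts of this gene did not separate the libraries. A RefSeq gene model, Gm31649 (chr7:13023708-13024589), overlaps this start, and a window counted for it could hold the same reads. The Trim28 counts are no check of the deletion, because the removed exons are not named and a floxed gene can keep its start site.

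Among the methyltransferases, reads were divided between the libraries much as the library totals were. Setdb1 (ENSMUSG00000015697), the H3K9 methyltransferase that KAP1 recruits, held 7 and 3 reads in the KAP1+/+ and KAP1f/f library, below the median window in each. Its ratio was 0.90 (0.15 to 3.95). Suv39h1 (ENSMUSG00000039231) held 14 and 6 reads, the same ratio on more reads and so with a narrower interval (0.28 to 2.50). It is the only X-linked gene of the set, and the sex of the mice, which sets its copy number, is not given. Its autosomal paralog Suv39h2 (ENSMUSG00000026646) held 13 and 7 reads, a ratio of 1.13 (0.38 to 3.06). The paralogs were thus 1 read apart in each library, both above the median window. Pooled, the 3 methyltransferase windows held 34 and 16 reads, a ratio of 0.99 (0.51 to 1.85), and stood at 1.21 and 1.20 times the mean window of their libraries.

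The 3 HP1 genes, whose products bind trimethylated H3K9, spanned nearly the whole range of the set. Cbx1 (ENSMUSG00000018666, HP1 beta) held 15 and 8 reads, the most of any member over both libraries. It stood at the 82.2nd percentile of the KAP1+/+ and the 85.0th of the KAP1f/f library, at a ratio of 1.12 (0.41 to 2.82). Cbx5 (ENSMUSG00000009575, HP1 alpha) held 2 and 2 reads, at the 16.4th and 28.4th percentile of all windows, or the 4.93rd and 18.7th of windows with at least 1 read. Its ratio of 2.11 (0.15 to 29.1) has an interval spanning a factor of 190, so 4 reads leave its direction undetermined. Cbx3 (ENSMUSG00000029836, HP1 gamma) held 0 reads in either library, as did 6147 windows, 12.02% of the table. No ratio can be formed, and a count of 0 is compatible with up to 3 reads in each library (one-sided, 95%). That limit lies below the lower Poisson bound of Chd3, Cbx1, Suv39h1, Trim28, Suv39h2 and Chd4 in the KAP1+/+ library. The lowest of these 6 bounds is 6.20, for Chd4. In the shallower KAP1f/f library the limit was below the lower bound of Cbx1 alone (3.45). Cbx3 was singled out as the member with the fewest reads, and the bounds take reads as independent. The sources do not state that all windows have 1 width. A difference between Cbx3 and these windows was therefore not tested. Whether reads could be mapped and kept at the Cbx3 start was not tested. Pooled, the HP1 windows held 17 and 10 reads, a ratio of 1.24 (0.51 to 2.87), at 0.60 and 0.75 times the mean window.

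Cbx3 and Cbx5 share an arrangement that the choice of genes did not use, looked for after their low counts were seen. Each has the start of an hnRNP gene, encoding an RNA-binding protein, running the opposite way just upstream. The listed Hnrnpa2b1 start nearest to a listed Cbx3 start is 722 bases away, and that of Hnrnpa1 is 545 bases from the Cbx5 start. The outer ends of the gene models are closer, 106 bases apart for Cbx3 and Hnrnpa2b1 and 39 for Cbx5 and Hnrnpa1. Such a start of another gene lies within 1000 bases for 2 of the 9 members in the promoter table and for 12.3% of 27025 genes. Chd3, the member with the most KAP1+/+ reads, has no entry there and was not assessed. A long noncoding RNA gene, Gm32483, overlaps Chd3, and Gm31649 overlaps the Trim28 start, so a neighbour close by is not particular to Cbx3 and Cbx5. Because the arrangement was sought after the Cbx3 and Cbx5 windows were singled out, it is a description and no support for a link with reads. Their first listed promoters have 75.3% and 60.3% GC, that of Cbx3 being the highest of the 15. Across the 9 genes, read total and GC of the first listed promoter correlated at -0.48 (Pearson's r) and -0.34 (Spearman's rho). With the highest-GC promoter of each gene they were -0.25 and -0.24. Correlations of read total with the number of CG dinucleotides were weaker. They were -0.28 and -0.18 for the first listed promoter, and -0.066 and -0.072 for the highest-GC one. These describe 9 genes in the same libraries, and the part that GC, neighbouring starts or mapping had in the low counts was not tested.

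**Figure D1:**
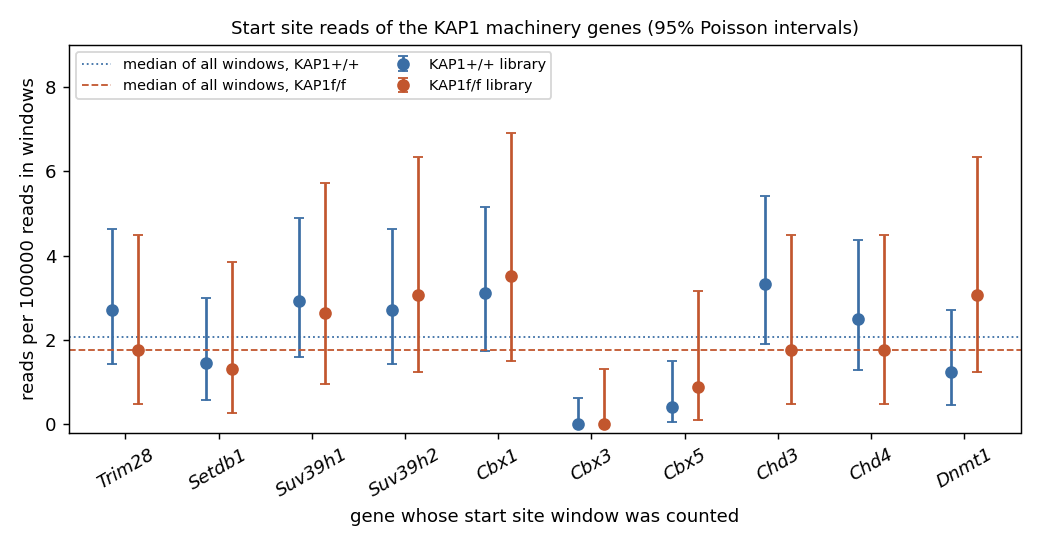
Reads at each start site per 100000 reads in windows (y axis) for the 10 genes (x axis), in the KAP1+/+ library (blue) and the KAP1f/f library (orange). Points are single libraries, bars are 95% Poisson intervals (for a count of 0, up to 3 reads), and horizontal lines are the medians of all windows; Cbx3 is at 0 in both libraries and the bars of every gene overlap between libraries.

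Per 100000 reads in windows, the members ran from 0 for Cbx3 to 3.33 for Chd3 in the KAP1+/+ library and from 0 for Cbx3 to 3.51 for Cbx1 in the KAP1f/f one. In read counts the order in the KAP1+/+ library was Chd3, Cbx1, Suv39h1, Trim28 level with Suv39h2, Chd4, Setdb1, Dnmt1, Cbx5 and Cbx3. No neighbours in that order differed beyond their counting intervals. Cbx5, with an upper bound of 7.22 reads, lay below the lower bounds of Chd3 (9.15), Cbx1 (8.40) and Suv39h1 (7.65). Of the 10 windows, 6 were above the median window of the KAP1+/+ library and 4 below it. In the KAP1f/f library 4 were above, 3 at and 3 below the median. The plot of reads per gene shows this spread on both sides of the median lines, with Cbx3 and Cbx5 at the bottom in both libraries. At the upper end none stood far out. The highest member count was 16, and the 95th percentile of all windows was 20 reads in the KAP1+/+ library. At the lower end Cbx3, with 0 reads, was at the 6.42nd percentile of the KAP1+/+ and the 8.14th of the KAP1f/f library.

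The genes of the chromatin remodelling ATPases of NuRD had fewer KAP1f/f reads than the library totals would give, by an amount within counting error. Chd3 (ENSMUSG00000018474) held 16 reads in the KAP1+/+ library, the most of any member there, and 4 in the KAP1f/f one. Its ratio was 0.53 (0.13 to 1.63), at the 16.2nd percentile of windows past the low-count filter. Chd4 (ENSMUSG00000063870), the main NuRD ATPase in lymphocytes, held 12 and 4 reads, a ratio of 0.70 (0.17 to 2.32). Both windows were above the median in the KAP1+/+ library and level with it in the other. Pooled, they held 28 and 8 reads, a ratio of 0.60 (0.24 to 1.36), the lowest of the role groups, and counting error still takes in equal levels.

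Dnmt1 (ENSMUSG00000004099), the maintenance DNA methyltransferase, had the highest ratio of the members past the filter. It held 6 reads in the KAP1+/+ and 7 in the KAP1f/f library, the only member with more reads in the shallower library. The ratio was 2.46 (0.71 to 8.85). Its window was at the 29.3rd percentile of the KAP1+/+ and the 78.9th of the KAP1f/f library. Its ratio stood at the 94.9th percentile of the 35540 windows past the filter. Among the 2347 windows that also held 13 reads in all, its KAP1f/f count stood at the 95.01st percentile. At the ratio of the library totals 4.18 of its 13 reads would be KAP1f/f, against the 7 counted. It is the extreme of the 8 members with enough reads, and its interval, set for 1 window at a time, includes a ratio of 1.

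**Figure D2:**
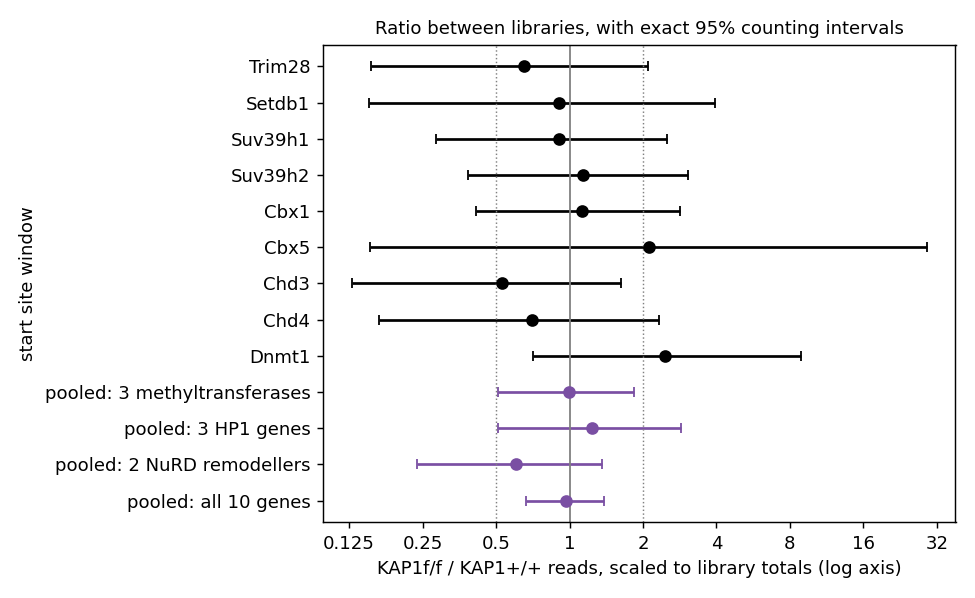
KAP1f/f to KAP1+/+ ratio scaled to library totals (x axis, log scale) for the 9 windows with reads (black) and pooled by role (purple), with exact 95% counting intervals. The solid line marks a ratio of 1 and the dotted lines 2-fold in either direction; every interval crosses 1, and the pool of all 10 genes is at 0.97.

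No member was called different between the libraries. A call needed a ratio of at least 2-fold after adding reads. The reads added averaged 2 per library and were divided in proportion to the library totals, as in every log2 ratio here. The interval of the KAP1f/f share also had to leave out the share of the whole library (32.2%). Last, the window had to hold a mean of at least 5 reads. Of the 10 windows 8 passed that read filter, Cbx3 and Cbx5 did not, and 0 of the 8 were called. Over all 35540 windows past the filter 4.30% were called, 2.49% higher and 1.81% lower in the KAP1f/f library, so a count of 0 among 8 is near the background. That background depends on the settings: with 10 reads added it was 0.633% (111 higher and 114 lower), and with a mean of 10 reads or more 5.92%, again with 0 members called. With reads so added, Dnmt1 alone reached the 2-fold size, with a log2 ratio of 1.00, and failed on its interval. Of the 9 windows with reads, 4 had a ratio above 1 (Cbx1, Cbx5, Suv39h2 and Dnmt1) and 5 below it, and all 9 intervals included 1. The median log2 ratio of the 8 was -0.11 against -0.05 for all windows past the filter, and the SD between windows was 0.53 against 0.69.

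**Figure D3:**
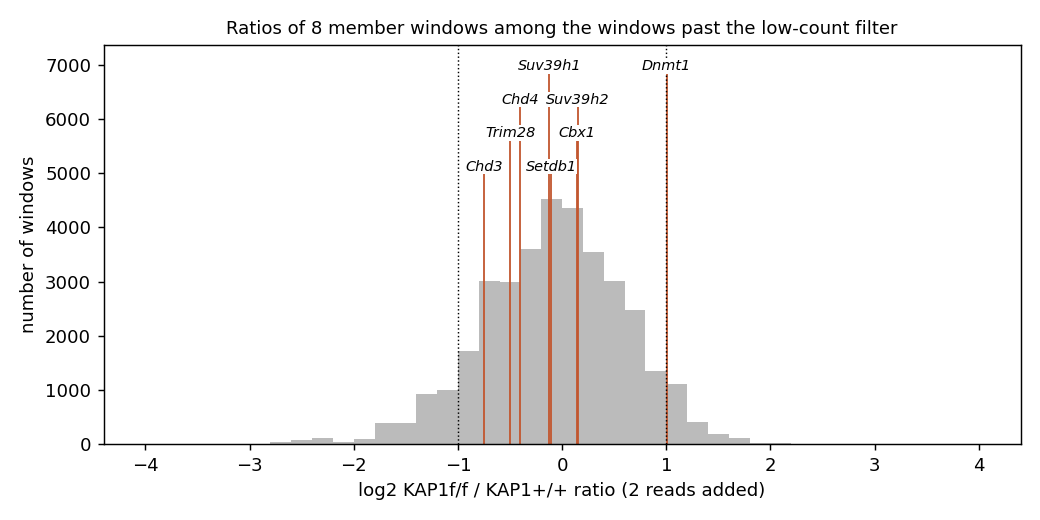
Number of windows (y axis) by log2 KAP1f/f to KAP1+/+ ratio with 2 reads added (x axis), for the 35540 windows past the read filter. The 2 reads are an average per library, divided in proportion to the library totals. Orange lines mark the 8 members among the windows. Dotted lines mark 2-fold; the members run from -0.75 for Chd3 to 1.00 for Dnmt1, at the 16.2nd and the 94.9th percentile.

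Pooled over the 10 windows, the members summed to 98 KAP1+/+ reads (Poisson interval 79.6 to 119) and 45 KAP1f/f reads (32.8 to 60.2). As many windows of mean depth would hold 94.0 and 44.6 reads, so as a set these start sites were at 1.04 and 1.01 times the average window. The pooled ratio was 0.97, with an interval of 0.66 to 1.39. A 2-fold pooled ratio in either direction lies outside that interval, which covers counting error in these libraries alone. The pool does not show what single members did: Cbx3 added 0 reads and Cbx5 2 reads in each library. Shifts within the interval could not be detected at this depth. Without Dnmt1 the pooled ratio was 0.87 (0.58 to 1.28), a choice made after its value was seen.

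Single members could have been called only for large differences. At 23 reads in all, Cbx1 would have needed 13 or more KAP1f/f reads to be called higher, a ratio of 2.74, or 2 or fewer to be called lower. Trim28, with 17 reads, would have needed 10 or more or 1 or fewer. Setdb1, with 10 reads, would have needed 7 or more, a ratio of 4.92, or 0. For the interval of an observed ratio of 2 to leave out 1, a window needs 43 reads, which 0 members and 150 of all windows (0.293%) held. In the other direction a ratio of 0.5 needs 61 reads, held by 0 members and by 4 of all windows (0.00782%). A ratio of 4 needs 12 reads, which 7 members held. These read numbers take the nearest whole read to each ratio. At its own 13 reads, Dnmt1 would have needed a ratio of 4.74 to be called higher. The same pair of counts as a member's was also common elsewhere: 387 windows including its own had the 13 and 4 reads of Trim28, and 492 had the 7 and 3 of Setdb1. The pair of Dnmt1, 6 and 7, was found in 126 windows.

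**Figure D4:**
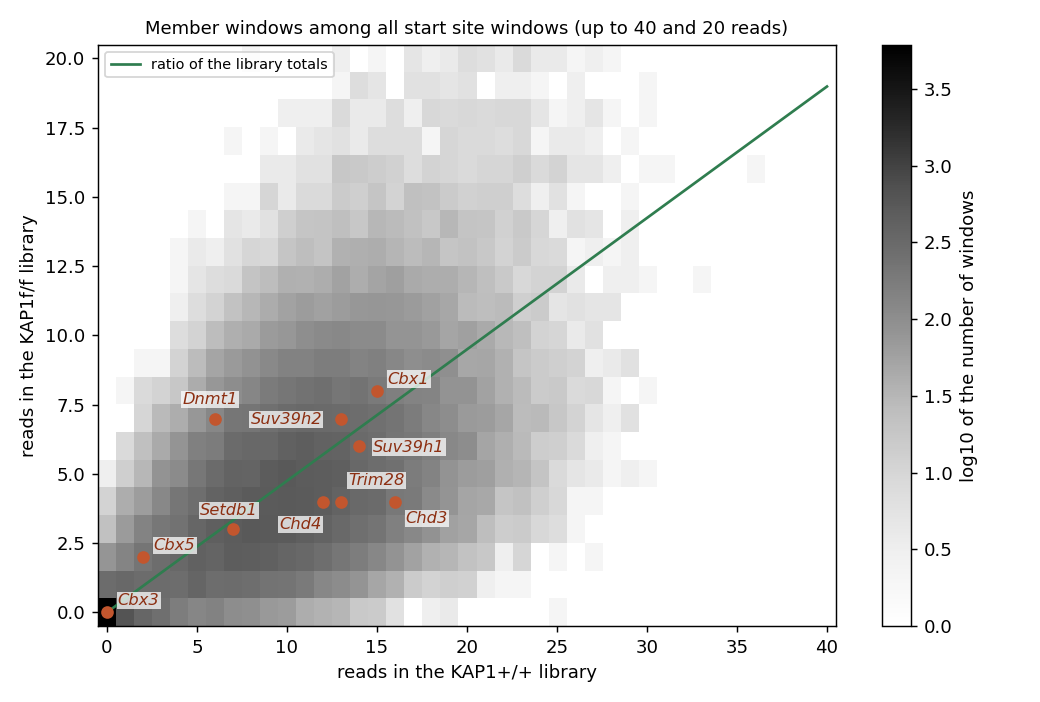
Reads of every start site window in the KAP1+/+ (x axis) and the KAP1f/f library (y axis), with darker grey for more windows at that pair of counts (log10 scale); orange points are the 10 members and the green line is the ratio of the library totals. The members lie within the dense part of the grey field, with Cbx3 at the origin, Dnmt1 above the line and Chd3 below it.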

How the data were processed

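The authors deposited whole-number read counts per window around transcription start sites. The values were taken as not normalized because they are whole numbers, since the column headings give the genotype alone. The submitters' processing notes name Bowtie2 2.2.9, Picard 2.1.1, bedtools 2.26.0 and build mm10. The labels give no window width, annotation, mapping-quality or duplicate filter, and such filters can empty windows in repeated sequence. Per the labels' protocols, libraries came from sonicated chromatin with a SMART ChIP-seq kit and size selection.

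The 10 members were matched by Ensembl identifier, with the symbols listed alongside the identifiers in the selection. The members and lists were chosen with earlier results of these data known. All 10 were to be named whatever their values. The gene table holds 0 Ensembl identifiers of the file, so that pairing was not checked, and the 53 further pathway symbols fixed as 6 lists have 0 matched windows and are not reported. Samples were grouped by genotype; no column was taken as input and 0 columns were left unused.

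Counts were scaled to library totals. Intervals are exact (Poisson, or Clopper-Pearson on the KAP1f/f share). Reads without molecular identifiers are not independent molecules. Calling was tested on simulated data. Windows of nearby starts could share reads. Promoters and coordinates are from RefSeq, GRCm38.p6. Alternatives covered scaling, reads added, the filter, the interval and the members pooled. Python 3.11.15, numpy 2.4.6, scipy 1.17.1, pandas 2.3.3 and matplotlib 3.10.9 were used.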

Additional observations from a re-analysis of the deposited data

How the results depend on the processing

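With 1 library per genotype no replicate could be left out, and all single-window statements are limited by depth. No paired analysis was possible because only 1 column exists for either genotype. No member (0) was called with 0.5 or 10 reads added, without the filter, with a stricter one or under median-of-ratios size factors. The pooled ratio of 0.97 was 0.99 with the median of ratios and with an expected ratio per decile of reads, 0.94 without Cbx1 (the member with the most reads), and 0.90 as the median of the single ratios. The 9 single ratios moved by factors of 0.98 to 1.09 under the other scalings, and with a 99% interval all 9 still included 1. Calls over all windows (1529, 885 higher and 644 lower) became 225 (111 and 114) with 10 reads added. Such an average addition equals the median count of the KAP1+/+ library and exceeds that of the KAP1f/f library. A stricter filter, a mean of 10 reads or more, left 12921 windows, 4 of them members, and 765 calls (530 and 235). The other filters, scalings and reads added kept these counts within 1.5 times. Among windows with at least 1 read, Cbx5 stood at the 4.93rd percentile in the KAP1+/+ library, against the 16.4th over all windows.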
